A study of Mus musculus with 9 samples.

Results

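Homeobox, T-box and GATA factors are transcription factors that give cells their place and kind in the embryo. The set described here was chosen by symbol alone: every listed gene whose name has a digit right after Tbx-, Pax-, Six-, Lhx-, Meis-, Pbx-, Irx-, Dlx-, Msx-, Pitx-, Alx-, Emx-, Nkx- or Gata-, with Hox genes not included. It holds 97 of the 24341 genes listed, in 14 families, and 11 of the 97 are antisense or opposite-strand RNAs that carry the name of a neighbouring factor, such as *Dlx1as* and *Emx2os*. RNA-Seq read counts of mouse embryonic fibroblasts (MEFs) were compared between 3 genotypes labelled WT, *Atm-/-* and *Sirt6-/-*, with 3 samples each, all of strain C57BL/6 and all cultured in DMEM with 10% serum. *Atm* is a DNA damage kinase and *Sirt6* a chromatin deacylase, and the study sequenced these cells with genes of glycolysis in view. Among the mice that gave MEFs the labels also list P53-/- and *Atm*-/-P53-/- ones, without tying them to samples. Per the study's methods, its immortalised *Atm-/-*; p53-/- MEFs and its *Sirt6-/-* MEFs came from different laboratories, so that genotype and the origin of the cell line cannot be told apart in any comparison below. The labels do not say whether the 3 samples of a genotype are separate embryos or cultures, and all p-values measure the spread between these samples, which may be technical.

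Members of these families bind DNA through a homeodomain, a T-box, a paired domain or GATA zinc fingers, and most are switched on in restricted regions of the embryo. Cultured fibroblasts are known to keep part of the factor set of the body site they were taken from, for example *Pitx1* and *Tbx4* of the hindlimb or *Tbx5* of the forelimb and heart. Some factors work with partners: *Pbx* and *Meis* proteins bind DNA together with other homeodomain proteins, Six-family proteins with Eya and Dach proteins, *Lhx* proteins with Ldb proteins and *Gata* proteins with Zfpm (FOG) proteins.

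The promoters of 4 members are printed because these genes were far higher in 1 genotype than in WT: *Tbx20* and *Tbx4* in the libraries labelled *Atm-/-*, *Pax8* and *Pax9* in *Sirt6-/-*. Each runs from 250 bases before to 50 bases after the gene's RefSeq start (GRCm38.p6), 5′ to 3′ on the gene's strand, with CpG dinucleotides in capitals. *Tbx20* (chr9:24774254-24774553, minus strand) has 26 CpG. *Tbx4* (chr11:85896515-85896814, plus strand) has 8, *Pax8* (chr2:24475550-24475849, minus strand) 7 and *Pax9* (chr12:56695221-56695520, plus strand) 11. The GENCODE annotation starts *Tbx4* at 85886422 and *Pax9* at 56691767, upstream of these windows. Which start the cells use was not tested.
Tbx20: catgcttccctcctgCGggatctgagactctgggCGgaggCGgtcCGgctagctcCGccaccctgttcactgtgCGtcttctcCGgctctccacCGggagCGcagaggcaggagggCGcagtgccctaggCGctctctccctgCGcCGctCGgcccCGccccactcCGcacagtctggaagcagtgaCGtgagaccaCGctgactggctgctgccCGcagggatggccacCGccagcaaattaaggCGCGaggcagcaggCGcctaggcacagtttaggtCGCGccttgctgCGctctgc
Tbx4: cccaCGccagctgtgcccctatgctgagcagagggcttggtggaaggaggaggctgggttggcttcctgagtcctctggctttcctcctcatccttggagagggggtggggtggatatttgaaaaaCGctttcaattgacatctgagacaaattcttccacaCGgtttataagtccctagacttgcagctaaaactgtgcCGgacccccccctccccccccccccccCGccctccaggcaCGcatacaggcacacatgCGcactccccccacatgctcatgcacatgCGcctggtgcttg
Pax8: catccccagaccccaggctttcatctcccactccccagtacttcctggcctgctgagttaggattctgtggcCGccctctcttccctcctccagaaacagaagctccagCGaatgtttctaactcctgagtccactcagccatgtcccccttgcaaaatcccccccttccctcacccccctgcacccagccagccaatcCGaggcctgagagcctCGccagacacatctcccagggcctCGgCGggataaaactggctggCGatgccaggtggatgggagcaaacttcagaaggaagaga
Pax9: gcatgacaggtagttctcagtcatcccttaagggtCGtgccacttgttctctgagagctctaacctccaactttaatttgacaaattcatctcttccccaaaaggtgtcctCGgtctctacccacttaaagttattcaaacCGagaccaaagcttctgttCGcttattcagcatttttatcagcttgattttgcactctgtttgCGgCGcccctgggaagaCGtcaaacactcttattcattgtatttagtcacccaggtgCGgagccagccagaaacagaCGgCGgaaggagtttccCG
On either strand, the *Pax9* window holds the T-box motif AGGTGT, present in 13.85% of the 27025 promoters of all genes, and the *Meis* and TALE motif TGACAG, present in 19.29%. The homeodomain motif TAATTA (5.31% of all promoters) and the GATA motif AGATAA (11.41%) are in none of the 4 windows, and no searched motif is part of another. A promoter was given for 67 of the 97 members, so a comparison of the whole set with other promoters would be void and is not made. A match is a stretch of letters, not a site.

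The 9 libraries held 32187040 to 33837949 reads each, so 3 reads stand for 0.0856 to 0.0959 CPM, the level used below (reads scaled to a common library size, with edgeR's TMM factors). *Atm* itself had 1536, 1617 and 1627 reads in WT and 3768, 3564 and 3443 in the libraries labelled *Atm-/-*, which goes against a loss of its transcript. The counts cover the whole gene and cannot show a disrupted protein, and "*Atm-/-*" below means the libraries labelled so. *Sirt6* had 487, 402 and 472 reads in WT and 4, 5 and 7 in *Sirt6-/-*. *Trp53*, which encodes p53, had 7108, 7102 and 6563 reads in WT and 9081, 9127 and 9218 in *Sirt6-/-*. In the libraries labelled *Atm-/-* it had 806, 946 and 928 reads. The part of low *Trp53* thus cannot be told apart from the *Atm* label in any comparison of these libraries. Of 10 fibroblast markers, 9 were read in WT and in *Atm-/-* and 10 in *Sirt6-/-*, with *Lum* at 0 in *Atm-/-* and *Fap* at 0 in WT. Their summed level was 18412 to 21925 CPM in WT, 5511 to 5646 in *Atm-/-* and 15042 to 15542 in *Sirt6-/-*. Single fibroblast markers went different ways. *Thy1* averaged 24.4, 87.3 and 0.470 CPM in WT, *Atm-/-* and *Sirt6-/-*. In the same order *Col1a1* averaged 8665, 1472 and 2376 CPM, *Col1a2* 4730, 883 and 7803, and *Pdgfrb* 77.8, 38.7 and 193. Markers of other tissues moved with the genotypes too. The 5 neural markers summed to 4.57 to 4.83 CPM in WT, 105 to 117 in *Atm-/-* and 78.2 to 85.9 in *Sirt6-/-*. *Map2* led both knockout sums, at 1.93, 82.3 and 52.3 CPM in WT, *Atm-/-* and *Sirt6-/-*. In the same order *Tubb3* averaged 1.87, 10.5 and 29.3 CPM, *Sox2* 0.380, 19.0 and 0.0618, and *Sox10* 0.401, 0.387 and 0.172. *Elavl3*, a neuronal RNA-binding protein, had at most 2 and 4 reads a library in the knockouts. The 4 cartilage markers summed to 5.37 to 5.78, 71.1 to 87.2 and 267 to 318 CPM, with *Col9a1* at 0 everywhere. Different genes led the cartilage sums in the knockouts: *Acan* averaged 57.1 CPM in *Atm-/-* and 1.60 in *Sirt6-/-*, and *Col2a1* 0.793 and 273. The 5 skeletal muscle, 5 heart muscle and 4 listed blood markers were highest in WT (12.4 to 15.2, 18.6 to 26.2 and 10.7 to 11.8 CPM, against at most 1.98, 5.31 and 4.20 CPM in either knockout). *Myog*, *Myh6* and *Cd3e* of these lists were at 0 in every library, while *Acta1*, *Tnnt2* and *Csf1r* of the same lists averaged 12.8, 22.2 and 7.71 CPM in WT. The 6 epithelial and 5 endothelial markers summed to 20.7 to 25.4 and 3.11 to 5.15 CPM in WT, 43.9 to 48.5 and 9.80 to 12.5 in *Atm-/-*, and 15.4 to 19.9 and 0.649 to 0.990 in *Sirt6-/-*. The epithelial rise in *Atm-/-* came mainly from *Krt18* (7.21 CPM in WT and 28.2 in *Atm-/-*), with *Cdh1* at 2.30 and 4.13. *Epcam* averaged 1.14 and 1.20 CPM and *Krt14* 2.86 and 2.49 in the same order. The endothelial sums followed *Kdr*, at 3.37, 10.98 and 0.222 CPM in WT, *Atm-/-* and *Sirt6-/-*. The other endothelial markers had at most 13 reads a library, and *Cdh5* averaged 0.190 CPM in WT and 0.326 in *Sirt6-/-*. The part of these markers in the results on the patterning factors was not tested, and in bulk RNA fewer cells of a type and less RNA per cell cannot be told apart.

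Of the 97 members, 24 had no read in any library and 73 had at least 1. A genotype mean of at least 1 CPM was reached by 28 members in WT, 39 in *Atm-/-* and 33 in *Sirt6-/-*. Summed over all 97, the level was 874 to 888 CPM in WT, 700.2 to 744 in *Atm-/-* and 1067 to 1131 in *Sirt6-/-*, so the 3 genotypes did not overlap in this sum. By this 1 CPM limit 21 members were present in all 3 genotypes. They include *Pbx2*, *Pbx3*, *Meis1*, *Meis2*, *Meis3*, *Dlx1*, *Dlx2*, *Tbx15* and *Tbx18*. Another 8 reached it in *Atm-/-* alone (*Alx1*, *Dlx4*, *Lhx1*, *Pitx1*, *Six2*, *Tbx4*, *Tbx5* and *Tbx20*), 5 in *Sirt6-/-* alone (*Dlx5*, *Dlx6os1*, *Irx1*, *Tbx1* and *Tbx2*) and 2 in WT alone (*Alx4* and *Emx2os*). The 6 that reached it in both knockouts and not in WT were *Irx2*, *Irx3*, *Lhx9*, *Nkx3-2*, *Pax9* and *Tbx3*. *Dlx1as*, *Gata4*, *Lhx2* and *Pax3* reached it in WT and *Atm-/-*, and *Pax8* in WT and *Sirt6-/-*. The limit is close for some of these: *Irx2* averaged 0.929 CPM in WT and 1.01 in *Atm-/-*, *Pax9* 1.10 in *Atm-/-* and *Tbx2* 0.926 in *Atm-/-*. The heat map of levels by sample shows these blocks.

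**Figure D1:**
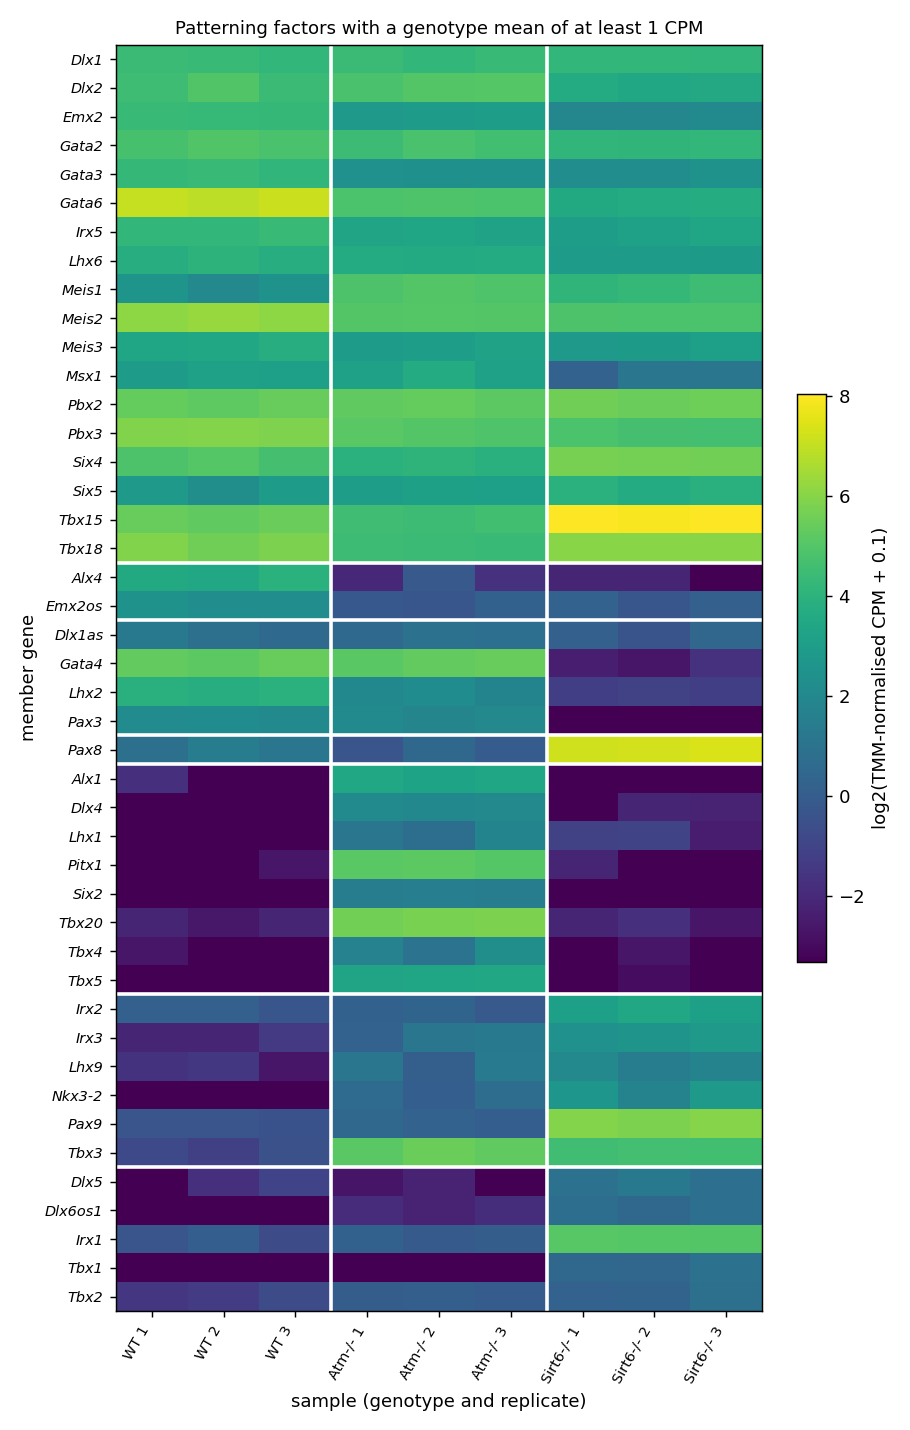
TMM-normalised level of members with a genotype mean of at least 1 CPM (rows) in each of the 9 samples (columns), coloured by log2(CPM + 0.1). White lines separate the genotypes and the groups of members that reach 1 CPM in the same genotypes. The members in the block at the top were read in every sample, and the block read in *Atm-/-* alone holds 8.

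The strongest member differed between the genotypes. Per kilobase of transcript, WT was led by *Gata6* (41.1 ± 2.93 CPM per kb, mean ± SD, n = 3), a zinc finger factor of endoderm and heart, and *Pbx3* (21.6 ± 0.750) was also among the highest, without overlap between them. *Meis2* (15.6 ± 1.09) and *Pbx2* (14.3 ± 0.792) were lower in WT and their samples overlapped. In the libraries labelled *Atm-/-*, high levels were those of *Pitx1* (14.3 ± 0.689 CPM per kb), *Pbx2* (13.8 ± 0.788), *Dlx2* (12.3 ± 1.19) and *Pbx3* (11.8 ± 0.856), and each of these overlapped with the one after it. In *Sirt6-/-*, *Tbx15* (71.9 ± 2.65 CPM per kb), a T-box factor of limb, skin and skull mesenchyme, led without overlap, and *Pax8* (61.2 ± 3.40) and *Pax9* (23.2 ± 1.68) were below it and apart from each other. *Pbx2* (16.4 ± 0.869) and *Irx1* (16.0 ± 0.494) were lower still and overlapped.

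Family sums moved in different directions. The summed *Gata* level was 218 ± 9.05 CPM in WT, 97.5 ± 5.73 in *Atm-/-* and 35.6 ± 1.38 in *Sirt6-/-*. *Emx*, *Lhx* and *Meis* sums had the same order (*Emx* 24.4 ± 1.24, 8.37 ± 0.686 and 4.79 ± 0.314 CPM). The *Tbx* sum had the opposite order, with 96.5 ± 8.49 CPM in WT, 152 ± 6.63 in *Atm-/-* and 349 ± 8.65 in *Sirt6-/-*. In the *Pax* family *Sirt6-/-* stood alone, with 217 ± 11.4 CPM against 7.25 ± 0.651 in WT and 6.10 ± 0.252 in *Atm-/-*. The *Irx* sum was likewise highest in *Sirt6-/-* (57.3 ± 1.66 CPM), against 20.9 ± 0.939 in WT. *Alx* was near 0 in *Sirt6-/-* (0.0821 ± 0.0711 CPM) and 12.7 ± 2.18 and 10.6 ± 0.263 CPM in WT and *Atm-/-*. These sums are led by few genes, and the *Alx* sums of WT and *Atm-/-* came from different genes, *Alx4* and *Alx1*.

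**Figure D2:**
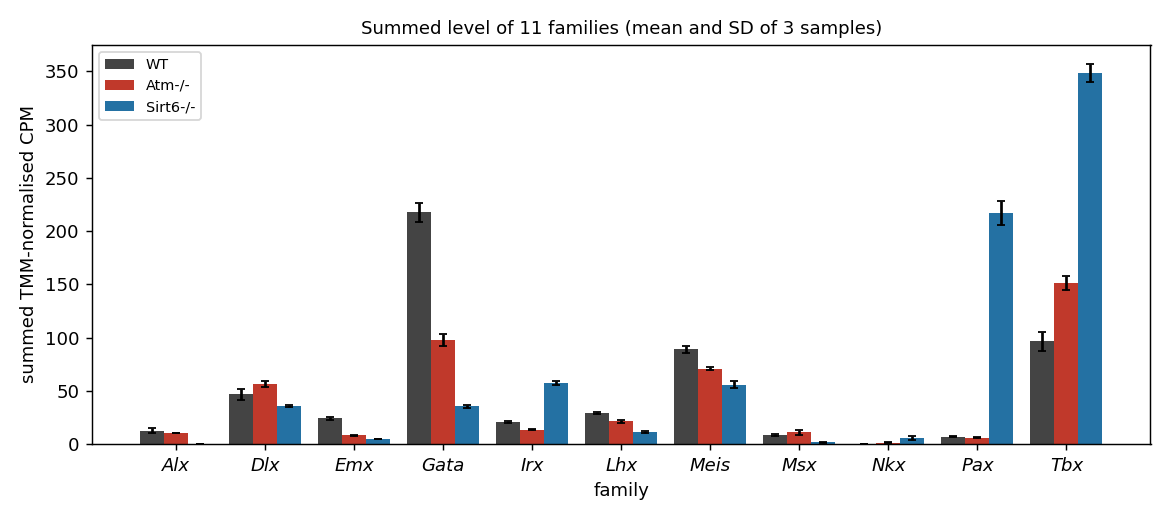
Summed TMM-normalised CPM of the members of 11 of the 14 families in WT, *Atm-/-* and *Sirt6-/-*. Bars are the mean of 3 samples and error bars their SD. The *Gata* bar is highest in WT, and the *Tbx*, *Pax* and *Irx* bars in *Sirt6-/-*.

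The first comparison asked which patterning factors differ between the libraries labelled *Atm-/-* and WT. T-box factors were among the rises: *Tbx20*, *Tbx5*, *Tbx4* and *Tbx3* went from at most 19 reads in a WT library to 67 to 1908 in *Atm-/-*. *Pitx1*, *Alx1*, *Six2*, *Dlx4* and *Lhx1* also went from almost no reads to 56 to 1285. *Gata6*, *Gata3*, *Alx4*, *Lhx2*, *Emx2* and *Emx2os* fell. Enough reads to be tested were counted for 46 of the 97 members, and 17 rose and 16 fell in *Atm-/-* (quasi-likelihood test of edgeR, p adjusted over all genes tested by the method of Benjamini and Hochberg, threshold 0.05), while 68.4% of the 13283 genes tested were called, 34.7% higher and 33.6% lower. A member that was tested only through its level in *Atm-/-* had to differ, and these counts support nothing beyond the genes named. Calls of at least 4-fold were made for 17 of the 46 members, 14 higher (beside 8.39% of all genes tested) and 3 lower (4.15%), or 12.5% in either direction. The samples of the 2 genotypes did not overlap for 35, beside 72.6%. The median log2 fold change of the tested members was -0.02 and that of all genes 0.02, and the median absolute value was 1.37 for the members and 0.40 for all genes. Scaling by library totals instead of TMM would move all genes by 0.16 on the log2 scale, with 64.9% of calls higher in place of 50.8% and 20 members higher and 16 lower.

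Limb-type factors were read in *Atm-/-* and hardly in WT. *Pitx1*, the hindlimb factor of the paired-like class (chromosome 13 from 55825051 to 55836192; all positions are whole genes of GENCODE M21 on GRCm38), had 0, 0 and 2 reads in WT and 1221, 1285 and 1128 in *Atm-/-*. That is a ratio of 1661 with a 95% counting interval from 459 to 13720 (adjusted p = 1.2e-13). Its partner in hindlimb growth, *Tbx4* (chromosome 11 from 85886422 to 85916097), had 2, 0 and 0 reads in WT and 110, 67 and 161 in *Atm-/-*, a ratio of 154 (42.4 to 1281; adjusted p = 3.5e-07). Every *Atm-/-* library was above every WT library for both genes, and the fitted log2 fold change moved from 10.45 to 13.19 for *Pitx1* without WT replicate 3 and from 7.03 to 9.77 for *Tbx4* without WT replicate 1, which held all their WT reads. The *Atm-/-* libraries differed among themselves by more for *Tbx4* than for *Pitx1*. The forelimb and heart factor *Tbx5* (chromosome 5 from 119832668 to 119885219) was at 0 in all WT libraries and had 345, 353 and 365 reads in *Atm-/-*, at least 324-fold higher against a floor of 3 reads over the WT group (adjusted p = 1.5e-10). Hindlimb and forelimb factors were thus read in the same libraries. Of the exon bases of *Pitx1*, 10.3% are shared with 2 other annotated genes, and reads there could belong to either.

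The heart and motor neuron factor *Tbx20* (chromosome 9 from 24718138 to 24774303) had 4, 2 and 4 reads in WT and 1706, 1880 and 1908 in *Atm-/-* (log2 fold change 8.91 ± 0.17, SE; adjusted p = 9.4e-15). It was the member with the most reads among those near 0 in WT, and its promoter is printed above. *Tbx3*, a repressor in limb and mammary development (chromosome 5 from 119670669 to 119684724), had 15, 11 and 19 reads in WT and 1228, 1580 and 1293 in *Atm-/-* (log2 fold change 6.36 ± 0.17; adjusted p = 2.3e-13). Its relative *Tbx2* had 8, 9 and 16 reads in WT and 32, 34 and 30 in *Atm-/-* (1.39 ± 0.41; adjusted p = 0.008). All 3 were higher in 3 of 3 *Atm-/-* libraries without overlap, *Tbx2* at a level near 1 CPM.

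Several homeobox genes of the face, kidney and somites were read in *Atm-/-* and hardly or not at all in WT. *Alx1*, a craniofacial factor, had 6, 0 and 0 reads in WT and 374, 337 and 351 in *Atm-/-*, with a fitted log2 fold change of 7.25 ± 0.41. Without WT replicate 1, which held the 6 reads, it was 11.41 and depended on the prior count. *Six2*, which keeps kidney progenitors undifferentiated, was at 0 in WT and had 94, 97 and 88 reads in *Atm-/-*, at least 85.0-fold higher (adjusted p = 1.2e-07). *Dlx4*, a distal-less gene, had 0 reads in WT and 142, 135 and 136 in *Atm-/-*, at least 126-fold higher. *Lhx1*, a LIM-homeobox gene of kidney and head, had 0 reads in WT and 74, 56 and 116 in *Atm-/-*, at least 75.0-fold higher. *Nkx3-2*, a factor of the sclerotome and cartilage, had 0 reads in WT and 51, 33 and 53 in *Atm-/-*, at least 41.7-fold higher (adjusted p = 4.3e-06). For these 4 genes no read was counted in any WT library. Lower down, *Msx2* had 1, 2 and 3 reads in WT and 22, 17 and 13 in *Atm-/-*, a fitted log2 fold change of 2.90 at 0.501 CPM.

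**Figure D3:**
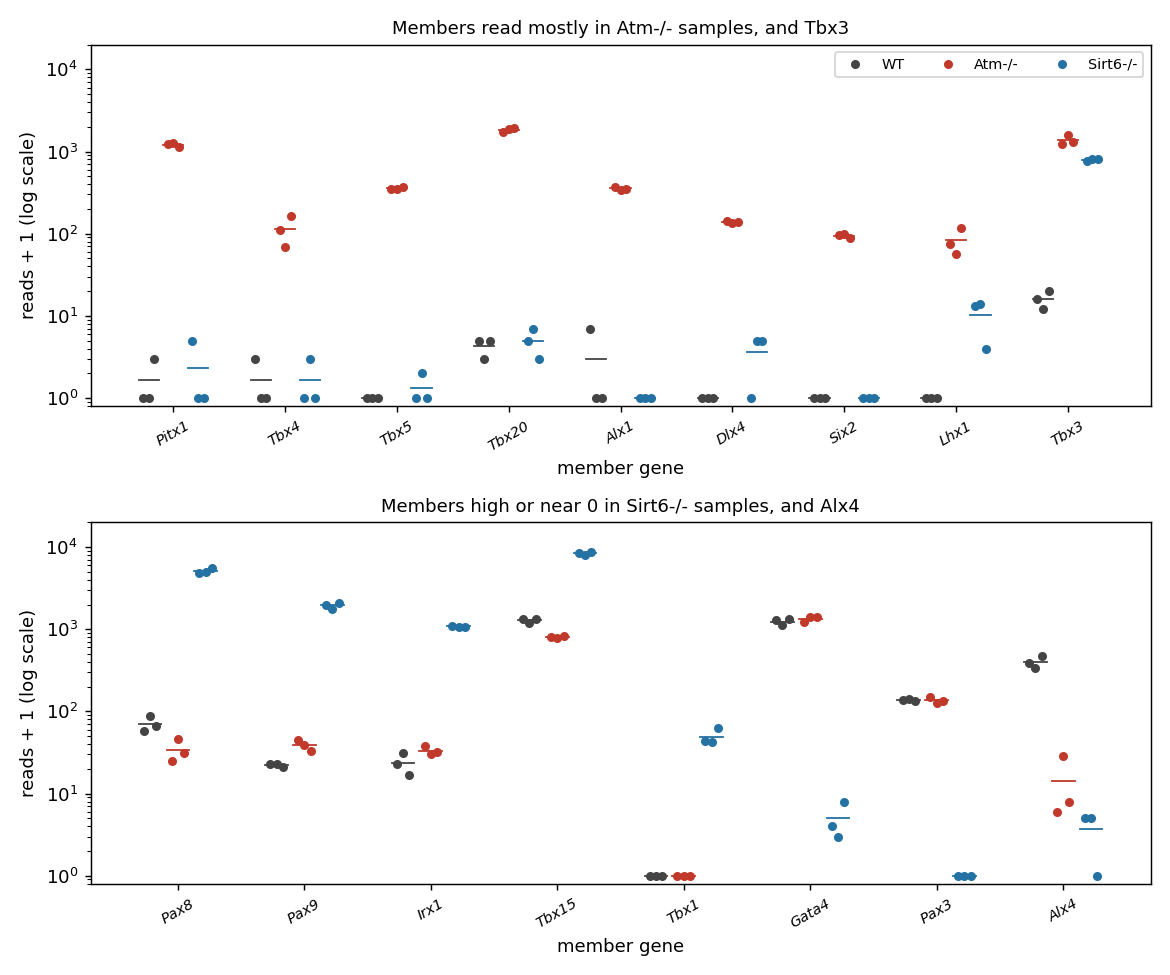
Reads + 1 (log axis) of members that were near 0 in some genotypes, 1 point per sample with a line at the mean of the 3 samples. The upper panel holds the members read mostly in *Atm-/-* and *Tbx3*, the lower panel members that were high or near 0 in *Sirt6-/-* and *Alx4*. *Pitx1* and *Tbx20* lie above 1000 reads in *Atm-/-* and at 6 reads or fewer in the other samples, and *Pax3* is at 0 in all 3 *Sirt6-/-* samples.

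Other rises against WT were of genes with reads in every library of both genotypes, though *Irx3* and *Lhx9* had at most 9 in a WT library. *Meis1*, a partner of *Pbx* and Hox proteins in limb and blood, had 185, 124 and 176 reads in WT and 1020, 1134 and 1007 in *Atm-/-* (log2 fold change 2.57 ± 0.13; adjusted p = 2e-10). Of its exon bases, 18.3% are shared with other annotated genes. *Irx3*, an Iroquois gene of limb and nervous system, went from 4, 4 and 9 reads to 38, 73 and 78 (3.31 ± 0.47; adjusted p = 2e-05), and *Lhx9*, a LIM-homeobox gene of limb and gonad, from 7, 8 and 2 to 72, 34 and 85 (3.33 ± 0.51; adjusted p = 4.4e-05). No *Atm-/-* library of these 3 genes overlapped with WT.

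Among the falls, *Gata6* (chromosome 18 from 11052064 to 11085635) carried the most reads, with 4234, 3788 and 4397 in WT and 991, 1058 and 942 in *Atm-/-* (log2 fold change -2.19 ± 0.07; adjusted p = 7.3e-13). *Gata3*, a factor of T cells and kidney, had 603, 655 and 562 reads in WT and 183, 179 and 174 in *Atm-/-* (-1.90 ± 0.11; adjusted p = 1.9e-09). The remaining tested *Gata* genes were not called: *Gata4*, a heart and gonad factor, had 1278, 1121 and 1320 against 1233, 1398 and 1408 reads (-0.02 ± 0.08; adjusted p = 0.86), with a positive sign under library totals. *Gata2* had 850, 960 and 860 against 762, 963 and 808 reads (-0.21 ± 0.09; adjusted p = 0.056), and was called without WT replicate 1 (-0.25; adjusted p = 0.047) or *Atm-/-* replicate 2 (-0.30; adjusted p = 0.016). *Gata3* and *Gata6* were thus lower in all 3 *Atm-/-* libraries, and the libraries of *Gata2* and *Gata4* overlapped.

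*Alx4*, which patterns limb and skull, had 383, 339 and 476 reads in WT and 5, 28 and 7 in *Atm-/-* (log2 fold change -5.03 ± 0.34; adjusted p = 6e-09), and -6.14 without *Atm-/-* replicate 2. This is the reverse of its relative *Alx1*. *Lhx2*, a LIM-homeobox gene of limb, hair and eye, had 473, 426 and 473 reads against 133, 158 and 116 (-1.89 ± 0.14), and *Emx2*, a urogenital and forebrain gene, 645, 610 and 588 against 238, 271 and 269 (-1.38 ± 0.11). *Emx2os*, on the strand opposite *Emx2*, had 176, 145 and 146 against 27, 25 and 36 reads (-2.54 ± 0.24). Without a stated strand setting, reads in the overlap of *Emx2* and *Emx2os* (8.8% of the exon bases of *Emx2*) cannot be told apart. No library of these genes overlapped between WT and *Atm-/-*.

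Further members fell by less. They include the partner factors *Pbx3* (log2 fold change -0.88), *Meis2* (-1.17) and *Meis3* (-0.50), and *Tbx15* (-0.83), *Tbx18* (-1.36), *Six4* (-0.93), *Irx5* (-0.98) and *Pax8* (-1.21). In these 8 genes each *Atm-/-* library was below each WT library. *Dlx2*, a face and forebrain gene with 717, 955 and 683 reads in WT and 937, 1110 and 1100 in *Atm-/-*, was called higher by a small margin (0.28 ± 0.12; adjusted p = 0.048) although its samples overlapped. Leaving out a library ended this call in 4 of 6 fits: the value was 0.21 without WT replicate 1, 0.19 without WT replicate 3, 0.26 without *Atm-/-* replicate 2 and 0.24 without *Atm-/-* replicate 3. The other 13 tested members were not called. They include *Dlx1* (-0.02), *Pax3* (-0.16), *Lhx6* (-0.21), *Pbx2* (-0.06), *Irx1* (0.37), *Irx2* (0.12), *Msx1* (0.29), *Six5* (0.37) and *Pax9* (0.69), and *Dlx1* and *Pbx2* changed sign under library totals. *Pax9* was called under library totals (0.86; adjusted p = 0.035), with all 9 samples in 1 fit (0.70) and by edgeR's exact test (0.69). *Six5* was called under library totals (0.54), with no filter on low counts (0.37), with all 9 samples in 1 fit (0.38) and by the exact test (0.37). *Msx1* was called under library totals (0.46). *Six5* was also called without WT replicate 3 (0.52) and *Msx1* without WT replicate 2 (0.36).

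The same question was asked of *Sirt6-/-* against WT. *Pax8* and *Pax9* were 157 and 59.7 CPM in *Sirt6-/-* against 2.20 and 0.676 in WT, *Irx1* rose with them, and *Tbx15* reached 256 CPM. *Gata4*, *Pax3*, *Alx4* and *Lhx2* went to between 0 and 12 reads in every *Sirt6-/-* library. Of 41 members tested, 20 were higher and 18 lower and 3 were not called, while 76.6% of the 13206 genes tested were called, 39.2% higher and 37.4% lower. Calls of at least 4-fold were made for 22 members, 14 higher (beside 9.88% of all genes tested) and 8 lower (6.04%), or 15.9% in either direction, and the samples of 38 members did not overlap, beside 79.0%. Here too the count includes members tested only through 1 genotype. The median log2 fold change of the tested members was 0.20 and that of all genes 0.02, and the median absolute value was 2.33 for the members and 0.54 for all genes. With library totals 21 members were higher and 18 lower.

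Of the paired-box genes 2 rose and 1 fell, while 39.2% of all genes tested were called higher and 37.4% lower. *Pax8*, a thyroid and kidney factor (chromosome 2 from 24420560 to 24475599), had 56, 86 and 66 reads in WT and 4881, 5019 and 5563 in *Sirt6-/-* (log2 fold change 6.16 ± 0.10; adjusted p = 7.3e-16). *Pax9*, a factor of pharyngeal pouches, teeth and vertebrae (chromosome 12 from 56691767 to 56712822), had 22, 22 and 20 reads against 1994, 1775 and 2104 (6.46 ± 0.12; adjusted p = 2.1e-15). The promoters of both are printed above. *Pax3*, a factor of neural crest and muscle precursors (chromosome 1 from 78101267 to 78197134), went the other way, from 138, 142 and 134 reads in WT to 0 in every *Sirt6-/-* library, at least 143-fold lower (adjusted p = 8.3e-09). Of the other 7 listed *Pax* members none was tested, and *Pax1* and *Pax6* had at most 4 and 5 reads in any library.

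T-box genes, *Six4* and *Six5* rose as well. *Tbx15* (chromosome 3 from 99240381 to 99354259) had 1338, 1184 and 1349 reads in WT and 8480, 7953 and 8787 in *Sirt6-/-* (log2 fold change 2.65 ± 0.06; adjusted p = 1.1e-14). *Tbx3* had 15, 11 and 19 reads against 762, 816 and 816 (5.67 ± 0.17; adjusted p = 3e-13). *Tbx1*, a pharyngeal factor, was at 0 in WT and had 43, 41 and 61 reads in *Sirt6-/-*, at least 46.5-fold higher (adjusted p = 1.9e-06). All 5 tested *Tbx* members were called higher, beside the 39.2% of all genes tested, with *Tbx2* (1.92 ± 0.42) and *Tbx18* (0.25 ± 0.07), and 9 of the 14 listed were not tested. Of *Tbx18*'s exon bases, 20.6% are shared with another annotated gene. *Six4* and *Six5* were higher by 0.81 ± 0.08 and 1.14 ± 0.16, without overlap.

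Iroquois and other homeobox genes rose from low levels. *Irx1* (chromosome 13 from 71957921 to 71963723) had 22, 30 and 16 reads in WT and 1105, 1072 and 1063 in *Sirt6-/-* (log2 fold change 5.51 ± 0.15; adjusted p = 1.6e-13). *Irx2* had 33, 32 and 23 against 279, 349 and 281 reads (3.31 ± 0.21), and *Irx3* 4, 4 and 9 against 170, 188 and 234 (5.04 ± 0.32). *Irx5*, read in all genotypes, fell from 587, 571 and 643 to 256, 294 and 345 (-1.06 ± 0.12). Of the 4 tested *Irx* members 3 thus rose and 1 fell, while 39.2% of all genes tested were called higher and 37.4% lower. *Nkx3-2* was at 0 in WT and had 200, 107 and 226 reads in *Sirt6-/-*, at least 171-fold higher (adjusted p = 4.6e-08). *Dlx5*, a bone and limb gene, had 0, 6 and 12 reads against 61, 74 and 55 (3.32 ± 0.56). Its value was 2.73 without WT replicate 1 and 4.28 without WT replicate 3. *Lhx9* (4.17 ± 0.41) and *Meis1* (1.95 ± 0.15) also rose. *Pbx2* was called higher at 0.20 ± 0.07 (adjusted p = 0.017), and lost the call without WT replicate 2 (0.14) or without *Sirt6-/-* replicate 1 (0.16).

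The falls in *Sirt6-/-* came from several families. *Gata4* (chromosome 14 from 63198922 to 63271692) had 1278, 1121 and 1320 reads in WT and 3, 2 and 7 in *Sirt6-/-* (log2 fold change -8.28 ± 0.20; adjusted p = 3e-14), and -8.92 without *Sirt6-/-* replicate 3. *Gata6* had 4234, 3788 and 4397 against 388, 412 and 433 reads (-3.38 ± 0.07; adjusted p = 8.4e-15). With *Gata2* (-0.65 ± 0.08) and *Gata3* (-1.95 ± 0.12), all 4 tested *Gata* members were called lower, without overlap, while 37.4% of all genes tested were called lower and 79.0% did not overlap. *Alx4* had 383, 339 and 476 reads against 4, 4 and 0 (-7.21 ± 0.35), and *Lhx2* 473, 426 and 473 against 11, 12 and 11 (-5.37 ± 0.19). *Msx1*, a limb and tooth factor under BMP control, had 236, 283 and 263 reads against 36, 68 and 70 (-2.22 ± 0.22; adjusted p = 3.5e-07). *Emx2* (-2.33 ± 0.12) and *Emx2os* (-2.39 ± 0.24) fell as well, and *Lhx6* fell by 0.96 on the log2 scale. *Dlx2* had 717, 955 and 683 reads against 409, 363 and 389 (-1.07 ± 0.13). *Pbx3* (-1.18), *Meis2* (-1.34) and *Meis3* (-0.61) were lower. *Dlx1as*, of whose exon bases 20.6% are shared with *Dlx1* on the opposite strand, was called at -0.89 ± 0.34 (adjusted p = 0.025), and lost the call without WT replicate 1 (-0.69) or *Sirt6-/-* replicate 1 (-0.92) or 2 (-0.69). *Dlx1* (-0.14) and *Pbx4* (-0.04) were not called.

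**Figure D4:**
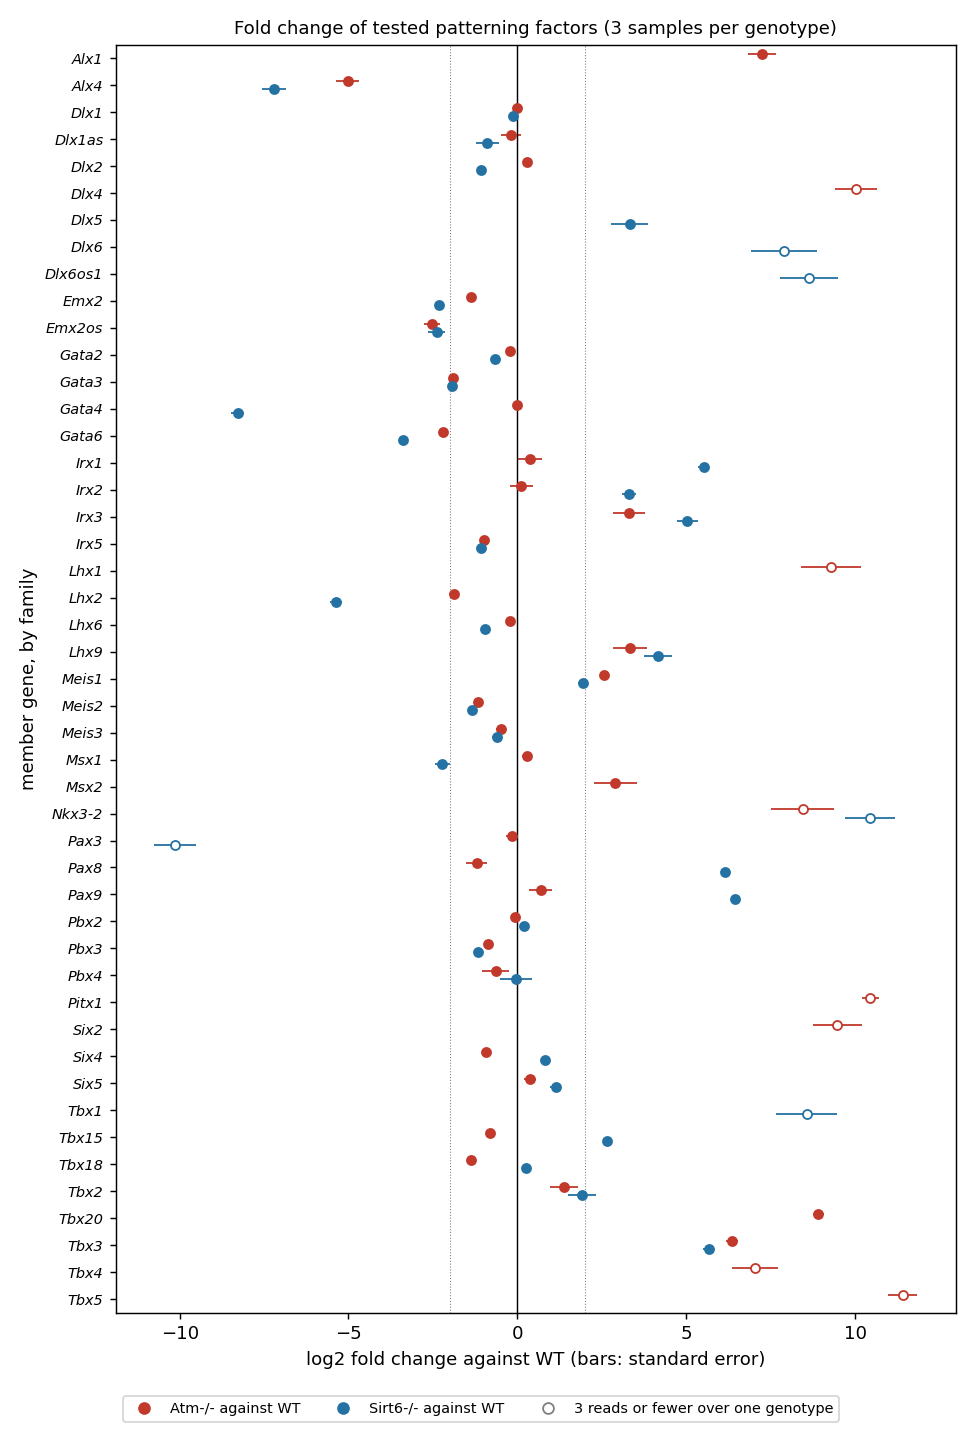
Log2 fold change against WT of members tested, red for *Atm-/-* and blue for *Sirt6-/-*, with bars for the standard error (3 samples per genotype). Open symbols mark genes with 3 reads or fewer over one genotype, whose fitted value depends on the prior count, and dotted lines mark 4-fold. *Gata4*, *Pax8*, *Pax9* and *Irx1* lie far from 0 in *Sirt6-/-* and within 4-fold of WT in *Atm-/-*.

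The comparisons of the knockouts with WT share the WT libraries, so they are set side by side only as values. Members called the same way numbered 7 higher and 11 lower in both knockouts. The share of all genes called alike was not counted. *Tbx15*, *Pax8*, *Six4*, *Tbx18* and *Dlx2* were called in opposite directions. *Tbx15* was lower in *Atm-/-* with 802, 778 and 821 reads and higher in *Sirt6-/-* with 8480, 7953 and 8787, against 1338, 1184 and 1349 in WT. *Pax8* had 24, 45 and 30 reads in *Atm-/-* (-1.21 ± 0.32; adjusted p = 0.0039) and 4881, 5019 and 5563 in *Sirt6-/-*. *Six4* had 940, 1027 and 805 reads in WT, 523, 580 and 498 in *Atm-/-* and 1718, 1665 and 1653 in *Sirt6-/-*. *Tbx18*, a factor of epicardium and ureter, had 1896, 1506 and 1762 reads in WT, 765, 745 and 697 in *Atm-/-* and 2103, 2112 and 2141 in *Sirt6-/-*. *Dlx2* was called higher in *Atm-/-* and lower in *Sirt6-/-*, and its call in *Atm-/-* did not hold when single libraries were left out.

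The direct comparison of *Atm-/-* with *Sirt6-/-* asked which factors tell the knockout lines apart. Of 49 members tested, 24 were higher in *Atm-/-*, 18 were lower and 7 were not called, while 75.8% of the 13460 genes tested were called, 38.0% higher and 37.8% lower. Calls of at least 4-fold were made for 24 members, 13 higher (beside 6.38% of all genes tested) and 11 lower (6.03%), or 12.4% in either direction, and 43 did not overlap, beside 78.2%. The median log2 fold change was 0.13 over the tested members and 0.0021 over all genes, and the median absolute value 1.72 and 0.49. Among members with more than 3 reads in both lines, *Pitx1* (9.63 ± 0.25), *Tbx20* (8.73 ± 0.17) and *Gata4* (8.28 ± 0.19) stood highest in *Atm-/-*. The *Pitx1* value was 13.22 without *Sirt6-/-* replicate 1, which held all 4 of its reads in that line, and the *Gata4* value 8.93 without *Sirt6-/-* replicate 3. *Pax8* (-7.35 ± 0.10; adjusted p = 7.4e-23), *Pax9* (-5.75 ± 0.11), *Irx1* (-5.13 ± 0.13) and *Tbx15* (-3.46 ± 0.05; adjusted p = 2e-22) were lower in *Atm-/-*.

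Factors at 0 in 1 line set limits instead of folds. *Alx1* was at 0 in *Sirt6-/-* and at least 336-fold higher in *Atm-/-*, *Pax3* at least 128-fold and *Six2* at least 88.3-fold higher. *Tbx1* was at 0 in *Atm-/-* and at least 50.9-fold lower there. In *Sirt6-/-*, *Tbx5* had 0, 1 and 0 reads, against 345, 353 and 365 in *Atm-/-*, a ratio of 1009 with a counting interval from 181 to 39892, and *Tbx4* had 0, 2 and 0 reads, a ratio of 160.4 (44.1 to 1330). *Sirt6-/-* replicate 2 held all reads of both in that line, and without it the fitted log2 fold changes moved from 9.54 to 11.45 and from 7.10 to 9.80. *Dlx5* (-4.97 ± 0.55), *Dlx6os1* (-3.28 ± 0.44) and *Dlx6* (-3.89 ± 0.70) were lower in *Atm-/-*. *Dlx5* was at -5.87 and *Dlx6* at -7.94 without *Atm-/-* replicate 2, which held all 6 *Dlx6* reads of *Atm-/-*. Smaller contrasts were *Meis1* (0.63 ± 0.09) and *Tbx3* (0.71 ± 0.08), both higher in *Atm-/-*. *Lhx9* was lower by call (-0.83 ± 0.28), and lost the call without *Sirt6-/-* replicate 1 (-0.67) or *Atm-/-* replicate 2 (-0.51). *Dlx1as* was called higher (0.72 ± 0.32; adjusted p = 0.049) and lost the call in 5 of 6 fits that left out a library, with 0.83 without *Atm-/-* replicate 1, 0.63 without *Atm-/-* replicate 2, 0.70 without *Atm-/-* replicate 3, 0.75 without *Sirt6-/-* replicate 1 and 0.52 without *Sirt6-/-* replicate 2.

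Many members lie next to each other in the genome, and neighbours did not always move alike. With a limit of 1 Mb to the next member, 46 of the 96 members that matched GENCODE M21 fell into 17 clusters. *Tbx3* and *Tbx5*, 141450 bases apart on chromosome 5, were both read in *Atm-/-*, but *Tbx3* alone was read in *Sirt6-/-* (762, 816 and 816 reads, against 0, 1 and 0 of *Tbx5*). *Tbx2* and *Tbx4*, 44474 bases apart on chromosome 11, were both higher in *Atm-/-* than in WT. In *Sirt6-/-* *Tbx2* was higher than in WT, with 36, 37 and 58 reads, and *Tbx4* had 0, 2 and 0. *Irx1* and *Irx2*, 665097 bases apart on chromosome 13, were both higher in *Sirt6-/-*, with *Irx4* at 0 there. On chromosome 8, *Irx3* rose and *Irx5*, 555558 bases away, fell in both knockouts, and *Irx6* had no read. *Dlx5*, *Dlx6* and *Dlx6os1* on chromosome 6 were all higher in *Sirt6-/-* (*Dlx6* at least 28.9-fold and *Dlx6os1* at least 48.8-fold). Of the neighbours on chromosome 2, *Dlx1* was called in no comparison and *Dlx2*, 9427 bases away, was called in all 3. *Six2* was read in *Atm-/-* alone, while *Six3*, 54975 bases away, had 0, 2 and 8 reads there.

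**Figure D5:**
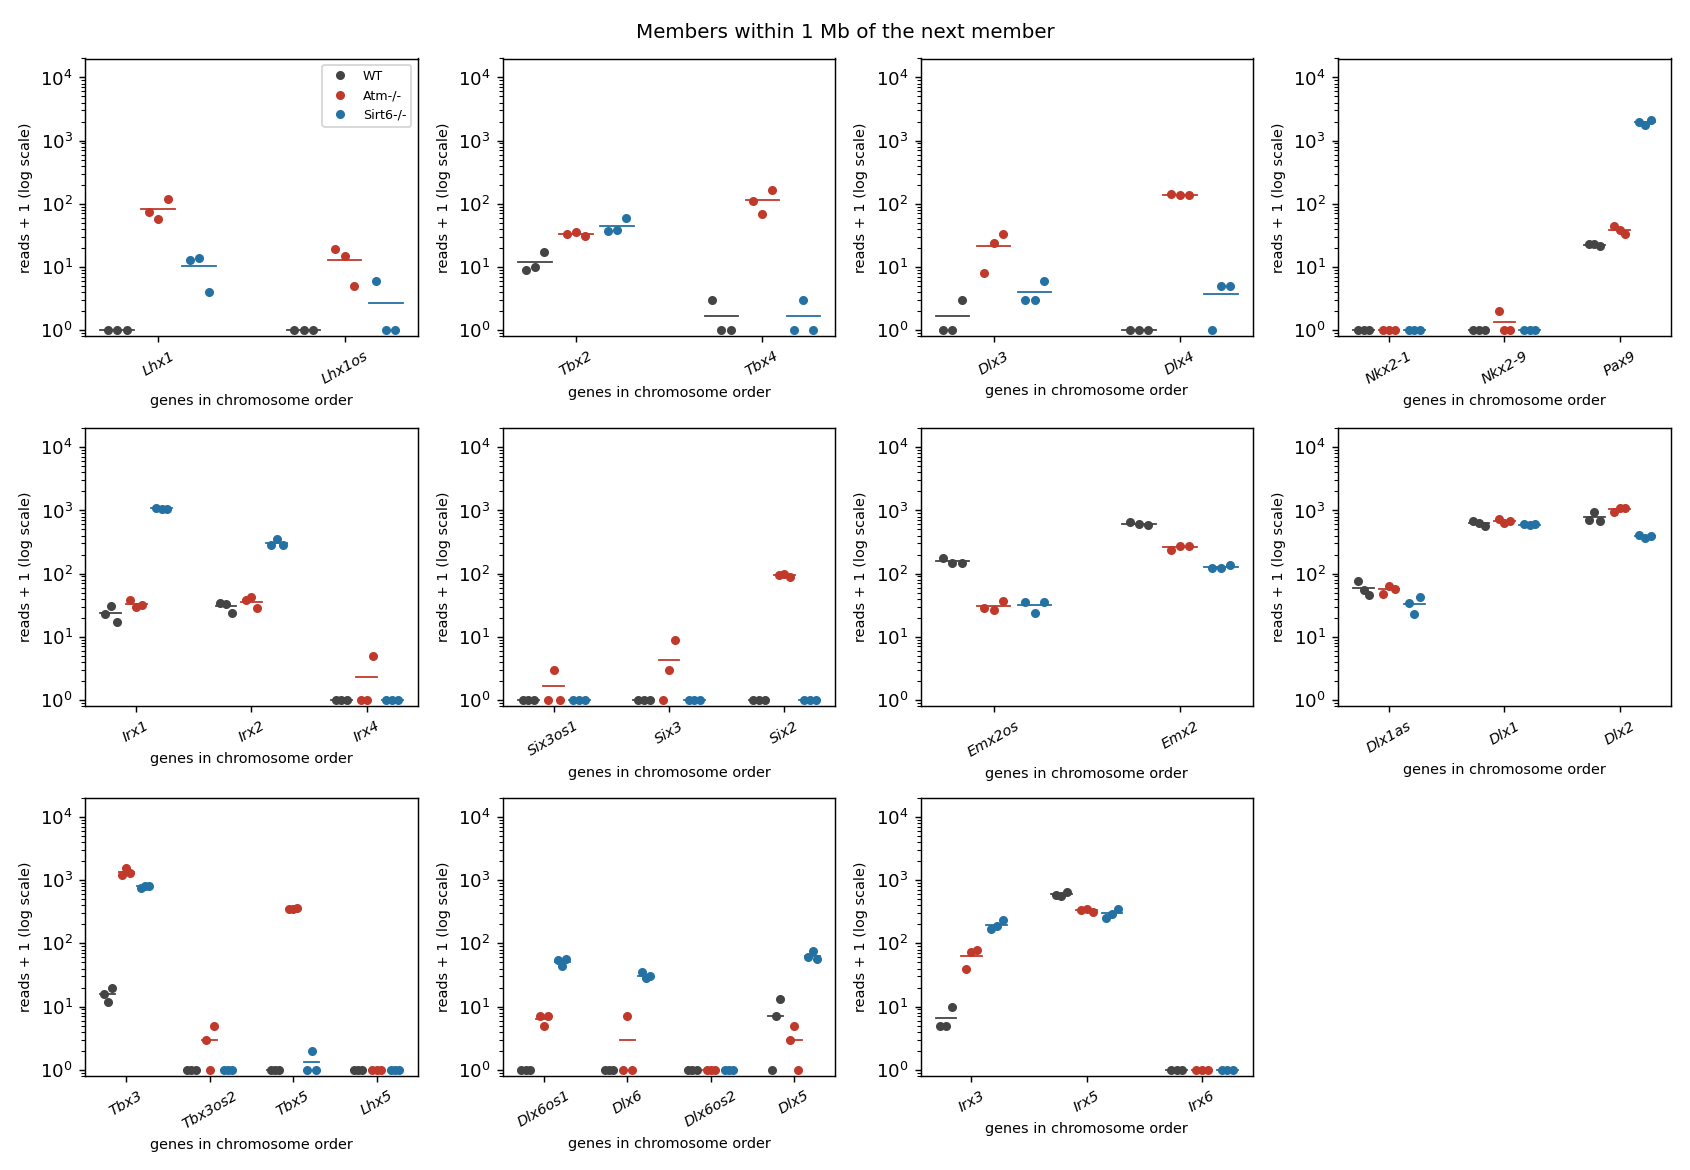
Reads + 1 (log axis) of members within 1 Mb of the next member, 1 panel for each of 11 clusters that hold a tested member, with genes in chromosome order, 1 point per sample and a line at the mean of 3 samples. *Irx3* is higher and *Irx5* lower in both knockouts than in WT, and *Tbx5* is above 100 reads in *Atm-/-* alone.

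Partners of these factors, taken from written lists, were counted in the same fits. Of all genes tested, 34.7% were called higher and 33.6% lower in *Atm-/-*, and 39.2% and 37.4% in *Sirt6-/-*, and the counts of these short lists are given as a description beside those shares. Of 6 Eya and Dach genes, cofactors of the Six-family, 4 were tested in *Atm-/-* with 2 higher and 0 lower, and 3 in *Sirt6-/-* with all 3 higher. *Eya1*, a phosphatase that binds Six-family proteins, had 176, 136 and 166 reads in WT, 669, 721 and 713 in *Atm-/-* and 805, 927 and 926 in *Sirt6-/-* (adjusted p = 1.7e-09 and 7.9e-11). *Eya4* rose in *Sirt6-/-* (2.26 ± 0.06) and was at 0.17 ± 0.09 in *Atm-/-*, without a call. The corepressor *Dach1* had 0, 1 and 0 reads in WT and 119, 141 and 130 in *Atm-/-*. The 2 *Gata* cofactors were lower in both knockouts, as *Gata3* and *Gata6* were: *Zfpm1* by -2.40 ± 0.14 and -3.35 ± 0.15, *Zfpm2* by -0.48 ± 0.07 and -1.00 ± 0.06. *Gata2* and *Gata4* were called lower in *Sirt6-/-* and not called in *Atm-/-*. Of 6 Lim cofactors, 2 of 3 tested were higher and 1 lower in *Atm-/-*, and both tested were higher in *Sirt6-/-*. *Lmo4* differed in sign (-0.33 ± 0.06 and 0.79 ± 0.05). Of 4 relatives of *Meis* and *Pbx*, 2 were higher and 1 lower in *Atm-/-* and 3 higher and 1 lower in *Sirt6-/-*. *Tgif2*, a corepressor, rose in both (3.96 ± 0.13 and 3.15 ± 0.15) and *Pknox2* fell in both (-5.22 ± 0.26 and -3.79 ± 0.15).

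Relatives outside the naming rule were also counted, against the same shares of all genes tested (34.7% higher and 33.6% lower in *Atm-/-*, 39.2% and 37.4% in *Sirt6-/-*). Of 8 T-box and LIM-homeobox relatives, 3 of 4 tested were higher in *Atm-/-* and both of 2 tested in *Sirt6-/-*, with none lower. *Isl1*, a factor of hindlimb, heart and motor neurons, had 2, 0 and 0 reads in WT, 411, 424 and 398 in *Atm-/-* and 0, 2 and 0 in *Sirt6-/-*, a pattern like that of *Tbx20*. Of 23 other mesenchyme patterning factors, 16 were tested in *Atm-/-* with 12 higher and 2 lower, and 14 in *Sirt6-/-* with 9 higher and 3 lower. Their median log2 fold change was 2.03 and 1.25, beside 0.02 over all genes in each comparison. *Prrx2*, a limb mesenchyme gene, had 67, 74 and 90 reads in WT, 1055, 1292 and 1129 in *Atm-/-* and 3624, 3758 and 3795 in *Sirt6-/-*. *Hand2*, a limb and heart factor, had 3745, 3884 and 3279 reads in WT, 1173, 1310 and 1171 in *Atm-/-* and 3, 7 and 10 in *Sirt6-/-* (-1.72 ± 0.07 and -9.12 ± 0.16). *Barx1* had 0, 2 and 0 reads in WT, 371, 436 and 350 in *Atm-/-* and 0 in *Sirt6-/-*. Of 12 textbook targets of these factors, 3 of 7 tested were higher and 3 lower in *Atm-/-*, and 2 of 6 higher and 4 lower in *Sirt6-/-*. *Fgf10*, a limb bud growth factor downstream of *Tbx4* and *Tbx5*, rose in both (2.11 ± 0.08 and 2.96 ± 0.07). *Tbx4* and *Tbx5* had at most 2 reads in any *Sirt6-/-* library, and a link of the *Fgf10* rise with these factors was not tested. *Cdkn2a*, which *Tbx2* and *Tbx3* repress, rose in both as well (1.59 ± 0.06 and 1.29 ± 0.07). Of the same list, *Met* (-0.86 ± 0.05 and -2.68 ± 0.05) and *Cdkn1a* (-1.16 ± 0.17 and -2.30 ± 0.17) fell in both. Links of *Cdkn2a*, *Met* and *Cdkn1a* with the patterning factors were not tested either.

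The remaining members were rarely read. In no comparison were 47 of the 97 members tested, among them 14 of 15 *Nkx* and 7 of 10 *Pax* members in each comparison with WT. Of these, 24 had no read in any of the 9 libraries, including *Nkx2-1* of lung and thyroid, *Pax2* of kidney, *Pax7* of muscle, *Lhx3* of pituitary and *Tbx22* of palate, which allows up to 0.0856 to 0.0959 CPM a library by counting error alone. Some below the limit of testing were read in 1 genotype: *Lhx8* had 23, 3 and 21 reads in *Atm-/-* and 0 elsewhere, *Pax6* had 4, 5 and 4 in *Atm-/-* and 0 elsewhere, and *Nkx6-1* had 9, 15 and 7 in *Sirt6-/-*, 0 in *Atm-/-* and 0, 2 and 0 in WT. *Dlx3* had 7, 23 and 32 reads in *Atm-/-* and at most 5 in any other library. These genes were not tested in the main fits. *Pbx4*, tested in all 3 comparisons and called in none, had 30, 27 and 31 reads in WT, 17, 14 and 31 in *Atm-/-* and 52, 9 and 28 in *Sirt6-/-*, and its libraries overlapped throughout.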

How the data were processed

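mRNA of 9 MEF samples (3 WT, 3 *Atm-/-*, 3 *Sirt6-/-*, grouped by the genotype label) was oligo(dT)-selected and sequenced by the authors. For each sample the authors deposited whole read counts of 24341 genes and RPKM, which were proportional to reads over the listed length. RPKM were used only for that check. The labels' processing notes name mm10. The aligner, counter and strand setting are not given in the sources used here.

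Each pair of genotypes was fitted on the counts of all genes with edgeR 4.0.16 in R 4.3.3 (filterByExpr with a minimum count of 10, TMM, glmQLFit and glmQLFTest with a prior count of 0.125, two-sided). Genes with a Benjamini-Hochberg adjusted p under 0.05 over all genes tested were called. CPM are TMM-scaled, and SE were computed from the F statistic. Samples of a genotype differed by more than counting noise (chi-square of 5.24 to 16.4 per gene) and were counted separately. WT replicate 2 stood apart, with 16.4 against replicate 1 and 15.1 against replicate 3. WT replicates 1 and 3 gave 6.43, and pairs within a knockout at most 6.88. Intervals and floors (3 reads over a group) cover counting error only. The fits were tested on simulated data.

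The members and gene lists were chosen with earlier results of these data known. Members with values in every sample were, for each comparison, the 10 largest rises and 10 largest falls among called members without overlap and with at least 1 CPM in a genotype, the 5 with the highest mean CPM, members called in opposite directions against WT, and *Pitx1*, *Tbx4* and *Tbx5*. A few members and the sums of their families are not reported here, but are part of all counts. For genes of other lists the same rule was used with 2 in place of 10. Other genes named with reads in each sample were chosen after their values were seen. Promoters are RefSeq windows (GRCm38.p6) and positions GENCODE M21, with 96 of 97 members matched. Alternatives were DESeq2 size factors, library totals, no filter or a mean of at least 1 CPM, all 9 samples in 1 fit, the replicate number as a block, the DESeq2 1.42.0 Wald test, edgeR's exact test, a prior count of 2 and each sample left out in turn.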

Additional observations from a re-analysis of the deposited data

How the results depend on the processing

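The number of members called stayed within 1.5 times its value under every alternative run. With a sample left out, members higher in *Atm-/-* than in WT numbered 17 to 21 (17 with all samples) and members lower 16 to 17. Against WT, *Sirt6-/-* had 19 to 22 higher and 17 to 18 lower. *Atm-/-* against *Sirt6-/-* had 24 to 26 higher and 17 to 18 lower. The other settings gave 14 to 23, 17 to 23 and 23 to 31 members higher.

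Signs reversed only for values that were not called. Under library totals *Dlx1* (0.14), *Gata4* (0.15) and *Pbx2* (0.10) turned positive in *Atm-/-* against WT, and *Pbx4* (0.053) in *Sirt6-/-* against WT. With a sample left out, values in *Atm-/-* against WT ranged from -0.080 to 0.042 for *Dlx1* (above 0 without WT replicate 1 or *Atm-/-* replicate 2), from -0.34 to 0.032 for *Dlx1as* (above 0 without WT replicate 1), from -0.080 to 0.054 for *Gata4* (above 0 without WT replicate 3 or *Atm-/-* replicate 1) and from -0.031 to 0.27 for *Irx2* (below 0 without WT replicate 3). *Pbx4* ranged from -0.72 to 0.39 in *Sirt6-/-* against WT (above 0 without *Sirt6-/-* replicate 2 or 3), and from -1.01 to 0.10 in *Atm-/-* against *Sirt6-/-* (above 0 without *Sirt6-/-* replicate 1). The cause was not tested. Of the values of single members, 784 kept their direction and side of the threshold with a sample left out, 16 lost the call, 7 gained it and 9 reversed. Under other settings these numbers were 1184, 3, 15 and 4. Genes with 3 reads or fewer in a genotype moved with the prior count (*Tbx5* in *Atm-/-* against WT from 11.40 to 7.41 with a prior count of 2).

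The genotypes share replicate numbers, but these did not pair the samples. Deviations of the 9 same-numbered pairs correlated at -0.015 to 0.059, and 2 of 9 correlated best with their own number. With the replicate block, members called higher were 17 in *Atm-/-* and 21 in *Sirt6-/-* against WT, and 23 in *Atm-/-* against *Sirt6-/-*. Members lower were 17, 18 and 18, and 4-fold calls 17, 22 and 23. Under the block *Gata2* was called in *Atm-/-* (-0.22; adjusted p = 0.032), and *Dlx1as* was not called between the knockouts (0.74; adjusted p = 0.074).

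The 47 members tested in no comparison had too few reads for the filter of the main fits, which cannot show whether they differed. Settings that kept more genes called up to 31 members higher in *Atm-/-* against *Sirt6-/-*, beside 24 in the main fit. Genotype and cell line origin cannot be told apart, nor can the *Atm* label and the low *Trp53* reads. With 3 libraries a genotype the precision is limited.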
